A study of Bos taurus with 10 samples.

Results

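MX1, MX2, RSAD2 and IFI6 are 4 antiviral genes of the type I interferon response, followed here in the white blood cells of 10 Holstein heifers. They were chosen by Ensembl gene ID, not by a threshold on their levels (MX1, ENSBTAG00000030913; MX2, ENSBTAG00000008471; RSAD2, ENSBTAG00000016061; IFI6, ENSBTAG00000007554) and are 4 of the 27570 gene IDs counted in each library. All 4 had enough counts to be among the 14165 IDs tested. All 10 animals were nulliparous Holstein heifers that had received a fresh embryo produced by fertilisation in vitro, so both groups share the transfer itself. In 5 the pregnancy diagnosis made on day 21 after transfer recorded a pregnancy, and 5 were recorded as non-pregnant. Each animal gave 1 library of total RNA from peripheral white blood cells. The age of the animals, the day of blood sampling, their health and any leukocyte count were not stated in the labels. Heifers are numbered 1 to 5 in each group for reference, and equal numbers mean nothing across groups.

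In cattle, the elongating conceptus secretes interferon tau, a type I interferon that acts on the uterus to keep the corpus luteum working. Type I interferons bind a receptor on the cell surface, and the signal passes to the nucleus, where a set of interferon-stimulated genes is switched on. Blood leukocytes express such genes in response to viruses and, in ruminants, around the time of early pregnancy, which is why they are often measured as early pregnancy markers. MX1 and MX2 are dynamin-like GTPases that assemble around viral components and block early steps of replication. RSAD2, also called viperin, is a radical SAM enzyme that makes a nucleotide which terminates viral RNA chains. IFI6 is a small membrane protein that restrains some viruses at the endoplasmic reticulum and counters cell death.

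Library totals ranged from 14146666 to 22146290 counts. The lowest count of any of the 4 genes in any library was 294, for RSAD2 in non-pregnant heifer 2, with an exact 95% Poisson interval of 261.4 to 329.6 counts. This interval covers counting error only, and all other counts of the 4 genes were higher, up to 10966 for MX2 in non-pregnant heifer 1. Levels are given as CPM, the count of a gene scaled to the size of its library with the TMM correction, which does not correct for gene length, so levels are compared between heifers and not between genes. White blood cells are a mixture, and in bulk RNA fewer cells of a type and less RNA per cell cannot be told apart. The leukocyte identity of the samples and their cell makeup were not checked against marker genes, since the IDs were not paired with other gene names here.

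For none of the 4 genes did the difference between the groups pass the threshold, an adjusted p of 0.05. All 4 had a higher mean in pregnant heifers, and in each the spread between animals was large beside the difference. The 4 genes varied together across the 10 heifers. With non-pregnant heifer 1 left out and each group centred on its own mean, no pair of them passed a correlation test. That setting was added after seeing the data. Every pair passed with either step taken alone. Non-pregnant heifer 1 had the highest level of MX1, MX2 and RSAD2 of all 10 animals and the second highest of IFI6, while the other 4 non-pregnant heifers lay below the median of the 10 for every one of the 4 genes.

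MX1 stood at 239, 123, 253, 211 and 290.1 CPM in pregnant heifers 1 to 5, and at 345, 159.8, 139, 103 and 89.9 CPM in non-pregnant heifers 1 to 5. The ranges overlapped at both ends: non-pregnant heifer 1 lay above all pregnant heifers, and pregnant heifer 2 lay below non-pregnant heifers 1, 2 and 3. The mean level was 223 ± 62.9 CPM in the pregnant group and 167 ± 103 CPM in the non-pregnant group (SD, n = 5 each). The fitted log2 fold change, pregnant over non-pregnant, was 0.42 (SE 0.35, 95% interval -0.34 to 1.18; edgeR's quasi-likelihood test, Benjamini-Hochberg adjusted p = 0.999). Of the 10 heifers, pregnant heifer 2 ranked 8, the lowest rank of a pregnant heifer in any of the 4 genes.

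MX2, the paralog of MX1, stood at 275, 169, 153, 213 and 304 CPM in pregnant heifers 1 to 5. It stood at 524, 81.9, 108, 84.1 and 114 CPM in non-pregnant heifers 1 to 5. Non-pregnant heifer 1 was above every pregnant heifer and the other 4 non-pregnant heifers were below every pregnant heifer, so the groups overlapped through 1 animal. The means were 223 ± 65.4 CPM in the pregnant group and 182 ± 192 CPM in the non-pregnant group (SD, n = 5 each), with medians of 213 and 108 CPM. The log2 fold change was 0.29 (SE 0.54, 95% interval -0.92 to 1.5; edgeR adjusted p = 0.999), the widest interval of the 4 genes.

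RSAD2 stood at 55.1, 20.9, 27.9, 33.9 and 45.8 CPM in pregnant heifers 1 to 5, and at 80.3, 17.9, 20.3, 22.4 and 19.1 CPM in non-pregnant heifers 1 to 5. Here too non-pregnant heifer 1 was the highest of the 10. The other 4 non-pregnant heifers lay close together, and pregnant heifer 2 fell within their range. The means were 36.7 ± 13.8 CPM in the pregnant group and 32.0 ± 27.1 CPM in the non-pregnant group (SD, n = 5 each). The log2 fold change was 0.20 (SE 0.45, 95% interval -0.80 to 1.19; edgeR adjusted p = 0.999), the smallest of the 4.

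IFI6 stood at 117, 47.1, 43.7, 44.1 and 59.0 CPM in pregnant heifers 1 to 5. It stood at 82.4, 34.9, 31.2, 35.0 and 27.0 CPM in non-pregnant heifers 1 to 5. In this gene the highest animal was pregnant heifer 1, and non-pregnant heifer 1 came second. The other 4 pregnant heifers were above the other 4 non-pregnant heifers by a narrow margin, 43.7 against 35.0 CPM at the closest. The means were 62.2 ± 31.2 CPM in the pregnant group and 42.1 ± 22.8 CPM in the non-pregnant group (SD, n = 5 each). The log2 fold change was 0.56 (SE 0.35, 95% interval -0.20 to 1.33; edgeR adjusted p = 0.999), the largest of the 4.

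**Figure D1:**
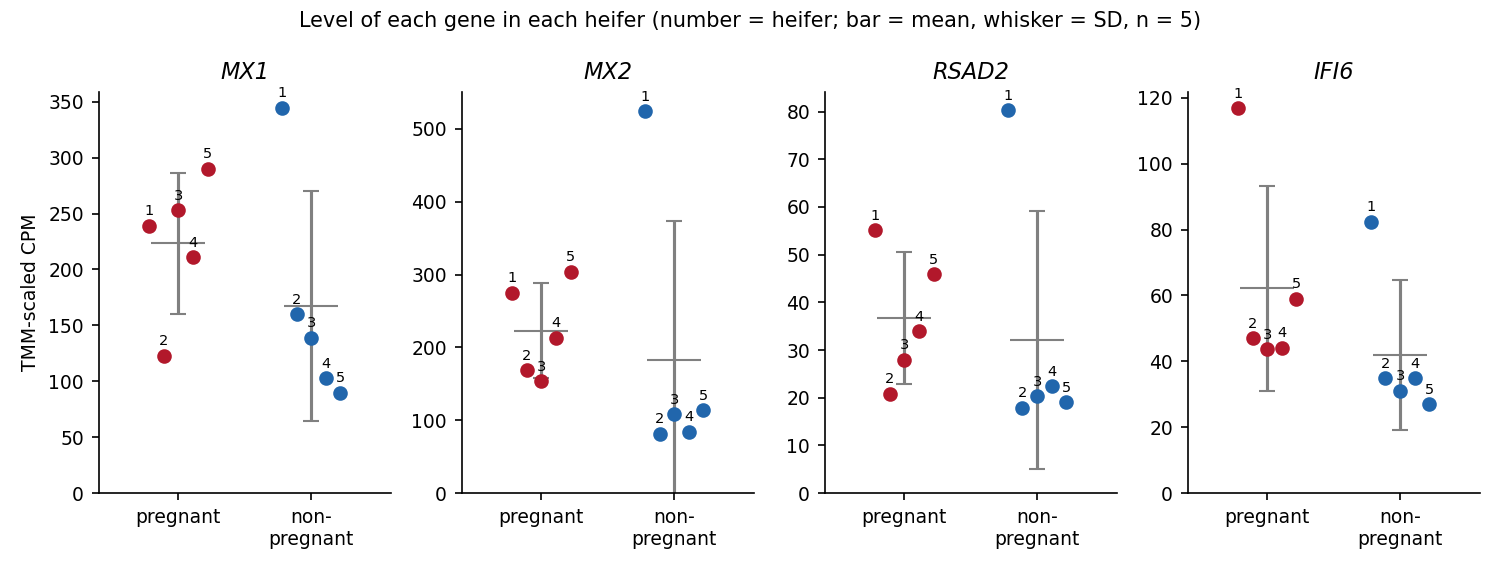
TMM-scaled CPM (y axis, linear, from 0) of the 4 genes in each of 5 pregnant (red) and 5 non-pregnant (blue) heifers; numbers name the heifer, the grey bar is the group mean and the whisker its SD, and the lower whisker of MX2 in non-pregnant heifers runs past 0 and is not drawn below it. Non-pregnant heifer 1 stands apart from the other 4 of its group in every panel, at 345, 524, 80.3 and 82.4 CPM.

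The count of called genes is thus 0 of 4, against a background of 0% of the 14165 IDs called at an adjusted p of 0.05 in the same fit. At an unadjusted p under 0.05, 2.24% of IDs were higher and 2.80% lower in pregnant heifers, and 0 of the 4 genes were among them (edgeR unadjusted p from 0.137 for IFI6 to 0.673 for RSAD2). In 0 of the 4 genes did all pregnant heifers lie above all non-pregnant heifers, a separation that 0.346% of tested IDs showed. DESeq2 called 5 of the 21696 IDs given a p-value, or 0.023%, and none of the 4. That total was taken before its own low-count filter. The median log2 fold change of the 4 was 0.35, and over all tested IDs it was 0.01. Differences in mean log2 CPM, pregnant minus non-pregnant, were 0.54 for MX1, 0.68 for MX2, 0.40 for RSAD2 and 0.58 for IFI6. These differ from the edgeR fold changes, which follow the ratio of the group means of CPM. A single high animal raises such a mean more than it raises a mean of log2 CPM. An exact two-sided permutation of the mean log2 differences, over all assignments to groups of 5, gave p = 0.214, 0.238, 0.413 and 0.190, unadjusted. The smallest p this permutation allows is 0.00794. The upper ends of the 95% intervals correspond to a level 2.26-fold (MX1), 2.83-fold (MX2), 2.28-fold (RSAD2) and 2.51-fold (IFI6) higher in pregnant heifers. The lower ends correspond to 0.788-fold, 0.528-fold, 0.575-fold and 0.868-fold the level. Differences of these sizes were within what the 10 libraries leave possible.

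Between-animal variation was large for all 4 genes beside other genes of like level. The SD of log2 CPM over the 10 heifers was 0.66 for MX1, 0.87 for MX2, 0.74 for RSAD2 and 0.65 for IFI6. Among tested IDs within 0.5 log2 CPM of each gene's mean level, the median SD lay between 0.24 and 0.28. MX1 varied more than 98.3% of the 932 IDs near its level, and MX2 more than 99.1% of 986. RSAD2 varied more than 98.1% of 2289 IDs and IFI6 more than 97.8% of 2180. The highest heifer exceeded the lowest 3.83-fold in MX1, 6.40-fold in MX2, 4.49-fold in RSAD2 and 4.34-fold in IFI6. These shares describe the 10 libraries and were not tested. Without non-pregnant heifer 1 the 4 genes still varied more than 95.5% to 98.7% of the same IDs. These SDs span both groups, so they include the difference between them. Within the 4 other non-pregnant heifers the SD of log2 CPM was 0.38 for MX1, 0.24 for MX2, 0.14 for RSAD2 and 0.18 for IFI6. Within the 5 pregnant heifers it was 0.48, 0.43, 0.56 and 0.60.

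Much of the spread within the non-pregnant group lay with 1 heifer. Its level was 2.85-fold the median of the other 4 non-pregnant heifers in MX1, 5.45-fold in MX2, 4.07-fold in RSAD2 and 2.49-fold in IFI6. In its library, 2.68% of tested IDs stood more than 2-fold above the median of the other 9 heifers. Over the 10 libraries this share ran from 1.61% to 4.68%. Non-pregnant heifer 1 had the second largest library, 21064282 counts. Its score on the first principal component of all tested IDs was the second highest (33.9, after 62.6 in pregnant heifer 5). Pregnant heifer 5 also ranked 2 of 10 in MX1 and MX2 and 3 of 10 in RSAD2 and IFI6. With the first principal component as a covariate the log2 fold changes were 0.27 for MX1, 0.20 for MX2, 0.08 for RSAD2 and 0.50 for IFI6, and the part of that component in the levels was not tested further.

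Leaving out single animals showed how far the comparison rests on non-pregnant heifer 1. Without it, the log2 fold change was 0.86 for MX1 (SE 0.24), 1.2 for MX2 (SE 0.21), 0.88 for RSAD2 (SE 0.25) and 0.96 for IFI6 (SE 0.27). The adjusted p-values of edgeR were then 0.467, 0.183, 0.483 and 0.484, so the 4 genes still did not pass, and 0% of 14405 IDs did. With any one of the other 9 animals left out, the log2 fold change ran from 0.26 to 0.57 for MX1, from 0.10 to 0.40 for MX2, from 0.00 to 0.34 for RSAD2 and from 0.20 to 0.66 for IFI6. The lower ends of RSAD2 and IFI6 came from leaving out pregnant heifer 1, whose IFI6 was the highest of the 10. Non-pregnant heifer 1 was kept in the group its label gives. The labels hold no record of its health or of the fate of its embryo, and whether it was correctly labelled was not tested, so the meaning of its values within the non-pregnant group is unknown.

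**Figure D2:**
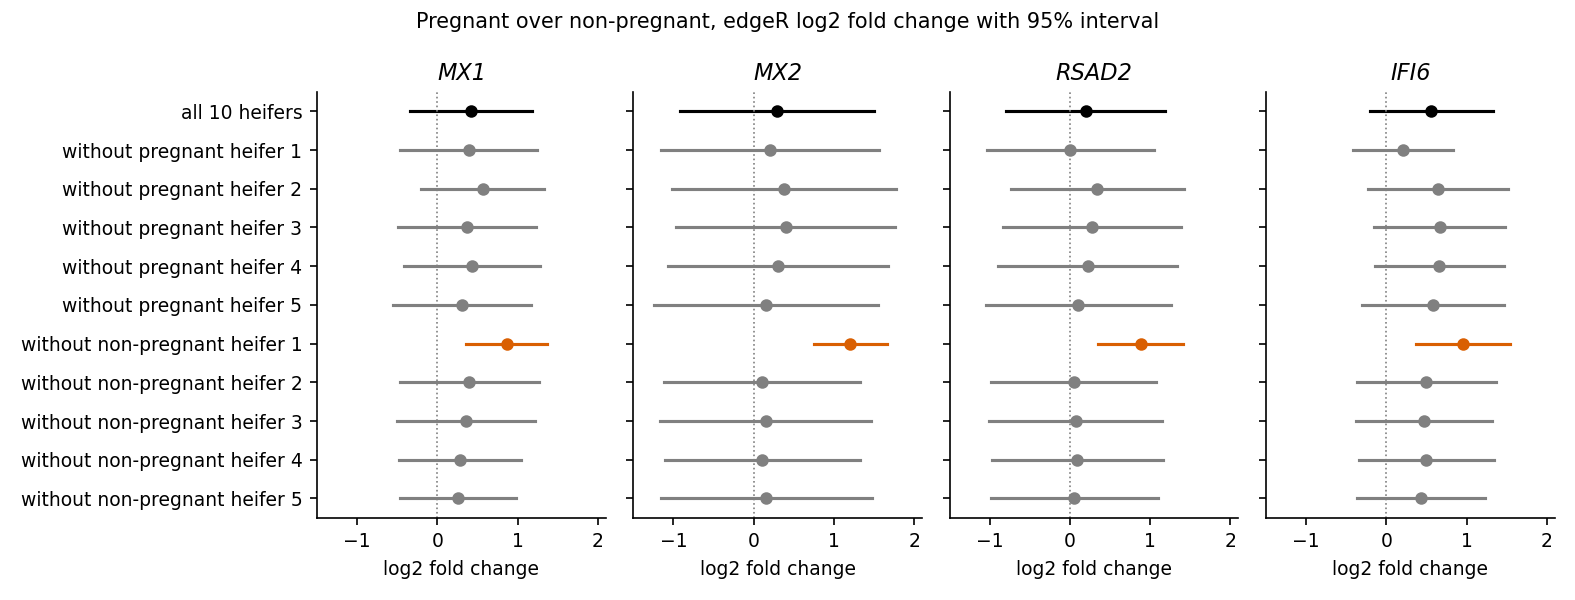
Log2 fold change, pregnant over non-pregnant (x axis), with its 95% interval from edgeR, for all 10 heifers (black) and with each animal left out (rows, grey; non-pregnant heifer 1 in orange). The intervals lie above 0 for all 4 genes in the orange row, from 0.36 to 1.37 for MX1 and from 0.75 to 1.66 for MX2. Those of the other rows include 0. Intervals are not adjusted for the number of IDs. The heifer left out in orange was singled out by these same genes, so that row is no test of pregnancy status.

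Among the 9 remaining heifers, all 5 pregnant animals lay above all 4 non-pregnant animals in MX2 and IFI6. In MX1 and RSAD2, 4 of the 5 did, with pregnant heifer 2 the exception in both. A separation with pregnant above held for 1.23% of all tested IDs in the same 9 animals. MX2 averaged 96.9 ± 16.3 CPM in the 4 non-pregnant heifers and RSAD2 19.9 ± 1.94 CPM (SD, n = 4). This animal was singled out by its level of these genes, so the values without it are a description of its weight and no test of pregnancy status. DESeq2 on the same 9 animals was an analysis added after seeing the data. It called MX2 (log2 fold change 1.2, adjusted p = 0.000294) among 55 of the 21499 IDs given a p-value (0.256%). That total, too, was taken before its own low-count filter. DESeq2 left MX1, RSAD2 and IFI6 at adjusted p-values of 0.104, 0.111 and 0.107. limma-voom with sample quality weights on all 10 animals gave log2 fold changes of 0.75, 0.80, 0.57 and 0.69 for MX1, MX2, RSAD2 and IFI6. The adjusted p-values of limma-voom ran from 0.357 to 0.629, and 0% of IDs were called. Its unadjusted p-values were 0.0116 for MX1, 0.0383 for MX2, 0.101 for RSAD2 and 0.0547 for IFI6. By p they ranked 458, 1102, 2273 and 1448 among 14165 IDs. That fit compares means of log2 values, whose unweighted differences were 0.54, 0.68, 0.40 and 0.58 in the same order of genes. In it the animals also did not count equally. The weights ran from 0.366 in pregnant heifer 2 to 2.37 in pregnant heifer 4, with 0.689 in non-pregnant heifer 1.

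The order of the heifers was much alike from gene to gene. Non-pregnant heifer 1 had a mean rank of 1.25 over the 4 genes, where 1 is the highest level, and pregnant heifers 1 and 5 followed with 2.5 each. Pregnant heifers 4, 3 and 2 came next, with mean ranks of 4.5, 5 and 6. Non-pregnant heifers 4, 3, 2 and 5 closed the order, with 7.75, 8, 8.5 and 9. Pregnant heifers 1, 4 and 5 were above the median of the 10 in all 4 genes, and pregnant heifers 2 and 3 in 2 of 4. Neighbours in this order are single animals with 1 library each, so whether they differ could not be tested.

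**Figure D3:**
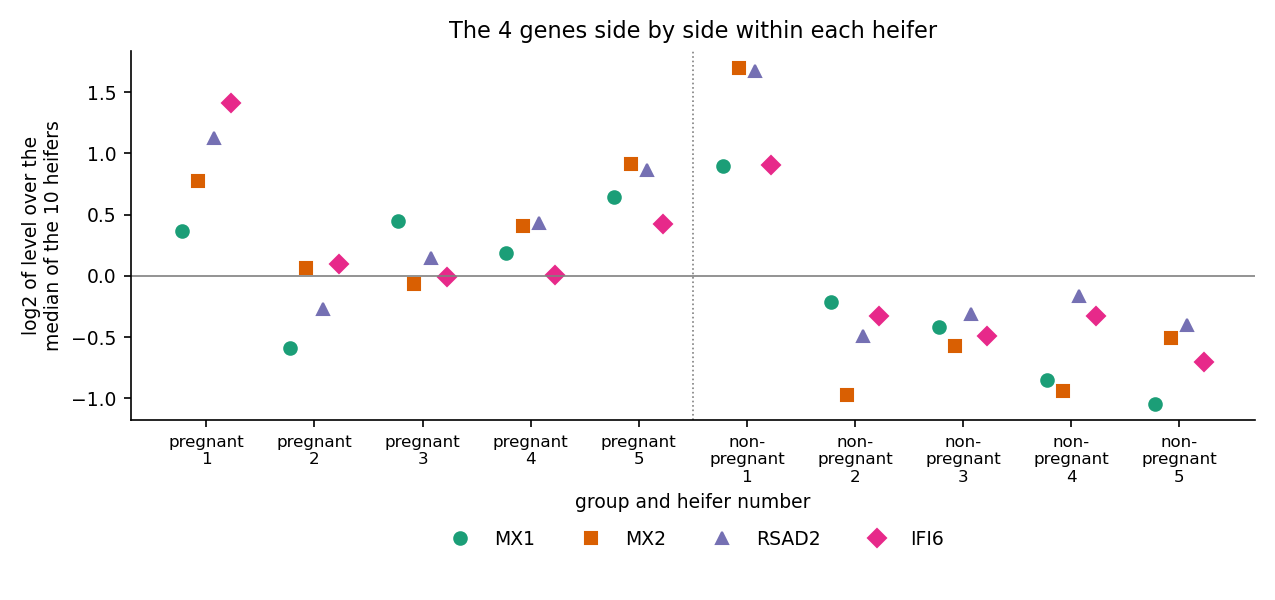
Log2 of each heifer's level over the median of the 10 heifers (y axis) for MX1, MX2, RSAD2 and IFI6, by group and heifer (x axis). The 4 genes sit above 0 together in pregnant heifers 1, 4 and 5 and in non-pregnant heifer 1, and below 0 together in non-pregnant heifers 2 to 5.

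Covariation was tested over the 6 pairs of genes, with Pearson's r and Spearman's rho of log2 CPM across the 10 heifers. MX2 and RSAD2 were the closest pair (r = 0.938, permutation p = 0.000100, adjusted p = 0.000600; rho = 0.879, permutation p = 0.00157, adjusted p = 0.00471). RSAD2 and IFI6 followed (r = 0.880, permutation p = 0.00118, adjusted p = 0.00354; rho = 0.879, permutation p = 0.00151, adjusted p = 0.00471). MX1 with RSAD2 had r = 0.842 (permutation p = 0.00234, adjusted p = 0.00468) and rho = 0.770 (permutation p = 0.0124, adjusted p = 0.0186). The 3 pairs just named all hold RSAD2, whose r with the mean of the other 3 genes was 0.956.

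MX2 with IFI6 had r = 0.820 (permutation p = 0.00344, adjusted p = 0.00516) and rho = 0.842 (permutation p = 0.00379, adjusted p = 0.00758). The paralogs MX1 and MX2, which are neighbouring genes in RefSeq's table for the assembly ARS-UCD2.0, had r = 0.812 (permutation p = 0.00507, adjusted p = 0.00608) and rho = 0.721 (permutation p = 0.0234, adjusted p = 0.0267). MX1 with IFI6 was the loosest pair (r = 0.741, permutation p = 0.0121, adjusted p = 0.0121; rho = 0.709, permutation p = 0.0267, adjusted p = 0.0267). All 6 pairs passed 0.05 after adjustment by either measure. The share of other ID pairs that reach such values in the same libraries was not computed. The labels do not state how reads shared by MX1 and MX2 were counted, so their separate levels carry that uncertainty.

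**Figure D4:**
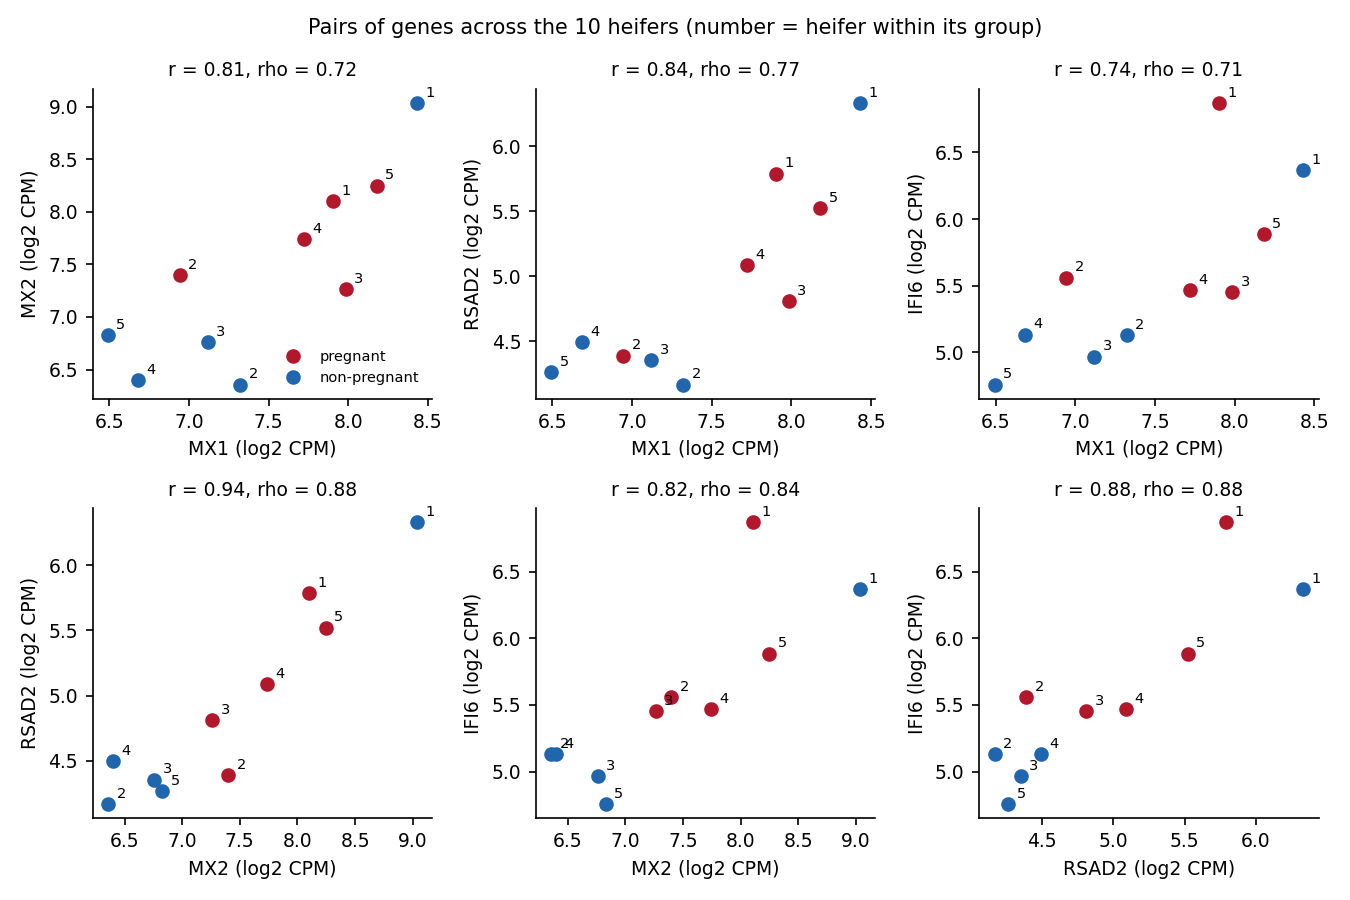
Log2 CPM of one gene against another for the 6 pairs, 1 point per heifer (red, pregnant; blue, non-pregnant; numbers name the heifer), with Pearson's r and Spearman's rho over the 10 heifers above each panel. Non-pregnant heifer 1 lies at the upper right in each panel and non-pregnant heifers 2 to 5 lie at the lower left.

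The strength of the covariation depended on which heifers entered. Leaving out the 2 heifers farthest from the median of the first gene of a pair gave r from 0.578 (MX1 with IFI6) to 0.871 (MX2 with RSAD2). MX1 with IFI6 no longer passed with non-pregnant heifers 1 and 5 both left out (adjusted permutation p = 0.118, 8 animals over a narrower range). It passed with either one left out alone (adjusted permutation p = 0.0331 without heifer 1 and 0.0467 without heifer 5). Within the 5 pregnant heifers r was 0.886 for MX2 with RSAD2, 0.784 for RSAD2 with IFI6, 0.744 for MX1 with RSAD2, 0.662 for MX2 with IFI6, 0.534 for MX1 with MX2 and 0.282 for MX1 with IFI6, untested at this size. Within the 5 non-pregnant heifers r ran from 0.849 to 0.972, and these values rest on non-pregnant heifer 1. In the 4 non-pregnant heifers without it r ran from -0.926 to 0.579, over the narrow range of level those animals cover.

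With each group centred on its own mean and all 10 heifers kept, all 6 pairs passed, with r from 0.677 to 0.939 (adjusted permutation p from 0.00528 to 0.0335). With non-pregnant heifer 1 left out and each group centred on its own mean, an alternative added after seeing the data, 0 of the 6 pairs passed after adjustment. The highest values were 0.771 for MX2 with RSAD2 and 0.753 for RSAD2 with IFI6, both with an adjusted permutation p of 0.0709 over 9 animals. Without this heifer and with no centring, r ran from 0.671 (MX1 with IFI6) to 0.890 (MX2 with RSAD2), and all 6 pairs still passed.

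The ratio between members also differed from heifer to heifer. MX2 counts were 1.52 times MX1 counts in non-pregnant heifer 1 and 1.37 times in pregnant heifer 2, but 0.606 times in pregnant heifer 3 and 0.512 times in non-pregnant heifer 2. The other 6 heifers had ratios from 0.778 to 1.26. The highest and lowest ratios were thus both in non-pregnant heifers, and the groups overlapped over most of the range. Pregnant heifer 3 ranked 3 of 10 in MX1 and 6 of 10 in MX2. IFI6 counts were 2.25 times RSAD2 counts in pregnant heifer 2, 2.12 times in pregnant heifer 1 and 1.03 times in non-pregnant heifer 1, the lowest of the 10.

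A small share of the other genes followed the same pattern. The mean of the 4 standardised log2 CPM values was taken for each heifer, and each of the other 14161 tested IDs was correlated with it over the 10 heifers, as a description with no p. Of these IDs, 93 (0.657%) had r above 0.8 and 15 (0.106%) had r above 0.9. In the opposite direction, 65 had r below -0.8 and 6 had r below -0.9. The same 10 libraries enter both sides of each r. The share that unrelated IDs would reach over 10 libraries was not computed. ENSBTAG00000020536 was the closest (r = 0.957), at 165 ± 24.9 CPM in the pregnant group and 128 ± 52.6 CPM in the non-pregnant group (SD, n = 5 each), with 219.9 CPM in non-pregnant heifer 1. ENSBTAG00000008703 came next (r = 0.956), at 111 ± 21.7 and 91.0 ± 40.4 CPM (SD, n = 5 each), with 162 CPM in non-pregnant heifer 1. At the other end ENSBTAG00000003601 had r = -0.951 and ENSBTAG00000006805 r = -0.931. The former stood at 0.143 CPM in non-pregnant heifer 1 and between 1.74 and 3.22 CPM in the other 4 non-pregnant heifers, a level at which few reads decide the value. No symbol was available here for these IDs. For the same reason the lists of other interferon-stimulated genes, of receptor and signalling genes and of their inhibitors were not analysed here.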

How the data were processed

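RNA sequencing libraries of peripheral white blood cells from 5 pregnant and 5 non-pregnant heifers were used, grouped by the treatment label. Each deposited file holds unnormalised counts of reads for Ensembl gene IDs, per the file headers. HISAT2, HTSeq, Trim Galore 0.4.4, FastQC 0.11.7 and the build ARS-UCD1.2 are named in the submitters' processing notes. Annotation release, strand setting and treatment of reads with several matches: not given in the sources used here. RNA integrity was checked per the labels' protocols.

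The symbols of the 4 genes were paired with their IDs when the genes were chosen. The files give no names and the RefSeq table used here (ARS-UCD2.0) holds 0 Ensembl IDs, so this pairing was not checked, and positions, lengths and sequences are not reported. The members and lists were chosen with earlier results of these data known.

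IDs were kept by filterByExpr (minimum count 10, minimum total 15), scaled by TMM and tested in edgeR 4.0.16 (R 4.3.3) over all 14165 IDs with the robust quasi-likelihood F test. P-values were adjusted by Benjamini-Hochberg, and 0.05 was the threshold. Standard errors are the absolute log2 fold change over the square root of F. The test was tested on simulated data. Log2 CPM used a prior count of 2. Permutation p-values of correlations used 100000 resamples (numpy 2.4.6) and are two-sided; those of group differences are exact. Each heifer is a separate animal. The 4 genes were always named; of the IDs most like them the 2 highest and the 2 lowest by r were named, since IDs had no symbols. Alternatives were DESeq2 1.42.0, limma-voom (limma 3.58.1) with quality weights, 2 other scalings, no filter, non-robust dispersion, principal components as covariates, and leaving out each animal. Those that combine other settings with leaving out non-pregnant heifer 1 were added after seeing the data.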

Additional observations from a re-analysis of the deposited data

Results flagged for a closer look

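Within each group of 5 heifers, the gap from the highest or lowest level to its nearest neighbour was set against the whole range, with Dixon's 95% critical value of 0.71. Of 8 sets of values, 5 passed it. Chance would mark about 1 in 20 if values were normally distributed, which CPM on a linear scale need not be. The measure was not computed on log2 CPM, where high values lie closer together, so a mark need not hold there. The marks nearest the critical value were MX1 in non-pregnant heifer 1 (0.726) and IFI6 in pregnant heifer 1 (0.791). Over all tested IDs, the share with a given heifer as the lone high animal of its group ran from 0.184% to 3.59%. The share with any mark was not computed. The 4 genes vary together and share their animals, so these marks are not independent.

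Non-pregnant heifer 1 stood apart from the other 4 of its group in all 4 genes. The gap over the range was 0.726 for MX1 (345 CPM, the others 89.9 to 159.8), 0.928 for MX2 (524 CPM, the others 81.9 to 114), 0.927 for RSAD2 (80.3 CPM, the others 17.9 to 22.4) and 0.856 for IFI6 (82.4 CPM, the others 27.0 to 35.0). Over all tested IDs this heifer was the lone high animal of its group by the same measure in 1.28%.

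Pregnant heifer 1 stood apart from the other pregnant heifers in IFI6 only, at 117 CPM against 43.7 to 59.0 CPM (gap over range 0.791). Over all tested IDs it was the lone high animal of its group in 0.417%. Its MX1, MX2 and RSAD2 were not marked.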

How the results depend on the processing

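The 4 log2 fold changes were above 0 in all 21 alternatives of the gene test. With single animals left out they ran from 0.26 to 0.86 for MX1, from 0.10 to 1.2 for MX2, from 0.00 to 0.88 for RSAD2 and from 0.20 to 0.96 for IFI6, each highest without non-pregnant heifer 1, and 0 to 0 IDs were called. MX1, RSAD2 and IFI6 did not pass an adjusted p of 0.05 in any alternative. MX2 passed in 1, DESeq2 without non-pregnant heifer 1 (1.2). DESeq2 called 5 IDs in all 10 animals and 55 without that heifer; the cause was not tested. RLE and upper quartile scaling moved the 4 log2 fold changes by at most 0.0044.

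The 6 values of r stayed above 0 in all 16 alternatives of each pair. With single animals left out r ran from 0.738 to 0.862 (MX1 with MX2), 0.786 to 0.890 (MX1 with RSAD2), 0.670 to 0.841 (MX1 with IFI6), 0.890 to 0.968 (MX2 with RSAD2), 0.787 to 0.915 (MX2 with IFI6) and 0.869 to 0.912 (RSAD2 with IFI6), and all passed. MX1 with IFI6 did not pass without the 2 farthest heifers (r = 0.578). With non-pregnant heifer 1 left out and groups centred, none passed: r = 0.289 (MX1 with MX2), 0.544 (MX1 with RSAD2), 0.307 (MX1 with IFI6), 0.771 (MX2 with RSAD2), 0.474 (MX2 with IFI6) and 0.753 (RSAD2 with IFI6); the range of levels and the number of animals are smaller there. No paired analysis was possible because no label ties an animal of one group to an animal of the other. Depth adds a counting error that spans 88.9% to 112% of the lowest RSAD2 count, and each group holds 5 animals.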
